A study of Homo sapiens with 9 samples.

Results

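NF-κB is a family of transcription factors, and 10 genes of its core circuit were followed here in a human kidney cell line: the subunit genes RELA, RELB, NFKB1 and NFKB2, and the feedback genes NFKBIA, NFKBIE, BCL3, TNFAIP3, TNIP1 and BIRC3. The members are a list of gene symbols, matched to the 58884 gene identifiers in each deposited table. All 10 were found, and all 10 passed the filter on low values that left 14454 genes for testing. The cells were HK-2, an immortalised line with the label of human proximal tubular epithelium, and RNA was sequenced from 9 libraries in 3 groups of 3. In the lactoferrin + PM2.5 group, cells had received lactoferrin, an iron-binding protein of milk and neutrophil granules, for 6 h and then fine airborne particulate matter (PM2.5) for 18 h. In the PM2.5 group they had received PM2.5 for 24 h, and the control cells are labelled untreated, although the treatment protocol also speaks of a vehicle. Doses in the series text are 40 mg/ml for lactoferrin and 1 mg/ml for PM2.5, in units that could not be checked. All groups were grown in the same serum-free keratinocyte medium with bovine pituitary extract and epidermal growth factor. No group with lactoferrin alone was analysed here, and the pretreated cells had a shorter labelled time in PM2.5 than the PM2.5 group. Pretreatment and time in PM2.5 therefore cannot be told apart.

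NF-κB dimers are held in the cytoplasm by inhibitory proteins of the IκB family and are freed when the IκB kinase complex marks these inhibitors for degradation. RELA and the p50 product of NFKB1 form the main dimer of the canonical pathway, while RELB and the p52 product of NFKB2 serve the slower non-canonical pathway. Active NF-κB induces several of its own brakes, among them NFKBIA and TNFAIP3, so that these transcripts are widely read as targets of the pathway as well as its inhibitors. In kidney tubule cells the pathway is known for driving cytokine and chemokine genes after injury.

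Values are FPKM, the fragments of a gene scaled for its length and for the library's total. They divide by gene length and so allow levels of different genes to be set side by side. Whether groups overlap was read on these deposited values, and it is said where the values scaled for testing differ in this for a member. The totals assigned to genes, rebuilt from the FPKM, lay between 15313375 and 18820367 per library, and the members had between 120 (BIRC3) and 2349 (TNIP1) of these in a library. A principal component with 54.3% of the variance split control from exposed libraries. Another, with 13.6%, set lactoferrin + PM2.5 replicate 1 apart from the rest. A further component with 8.79% set control replicate 3 apart at its upper end (26.9), with control replicate 1 lowest (-20.7). Proximal tubule identity was only partly visible: 3 of 11 marker genes, among them MME and PAX8, had a mean above 1 FPKM, while LRP2, CUBN and HNF4A were near 0. Of 5 epithelial markers 4 were above that level, and none of 7 immune and none of 5 distal tubule and collecting duct markers was. Of 6 endothelial and fibroblast markers COL1A1 alone was above 1 FPKM, and the summed level of that list was 1.93 to 2.15 FPKM in lactoferrin + PM2.5 libraries, 2.35 to 2.67 in PM2.5 libraries and 7.01 to 8.86 in control libraries. Most of that sum was COL1A1, at 1.14 ± 0.203 FPKM in lactoferrin + PM2.5 cells, 1.42 ± 0.0853 FPKM in PM2.5 cells and 6.77 ± 1.04 FPKM in control cells. DCN, the other gene of the list that was tested, was instead higher in PM2.5 cells, at 1.01 ± 0.0983 FPKM against 0.559 ± 0.0406 FPKM in control cells (log2 fold change 0.48, adjusted p = 0.0201, limma). Their part in the results below was not tested. In bulk RNA, fewer cells of a type and less RNA per cell cannot be told apart.

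The 10 genes spanned a wide range of levels, and their order differed between exposed and control cells. In PM2.5 cells NFKBIA was highest at 28.4 ± 1.04 FPKM (SD, n = 3 here and below), followed by NFKB2 (21.6 ± 1.16) and TNIP1 (21.1 ± 0.602), whose libraries overlapped. RELA (11.9 ± 0.527) came next, then NFKB1 (9.93 ± 0.396) and RELB (9.46 ± 0.377), which overlapped. TNFAIP3 (6.73 ± 0.459), BCL3 (6.11 ± 0.415) and NFKBIE (5.29 ± 0.973) followed with overlap between neighbours, and BIRC3 (1.76 ± 0.449) was lowest and apart from them.

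In control cells NFKBIA was again highest (30.1 ± 2.28 FPKM), and NFKB2 (20.6 ± 0.505) and TNIP1 (20.5 ± 1.39) again overlapped. RELA (10.7 ± 0.0411) and NFKB1 (10.4 ± 0.682) overlapped with each other, as did BCL3 (8.08 ± 0.148) and RELB (7.79 ± 1.27). TNFAIP3 (3.41 ± 0.433), NFKBIE (3.12 ± 0.167) and BIRC3 (3.10 ± 0.502) shared the lowest level and were not separable. In PM2.5 cells BIRC3 alone lay apart from the other two.

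**Figure D1:**
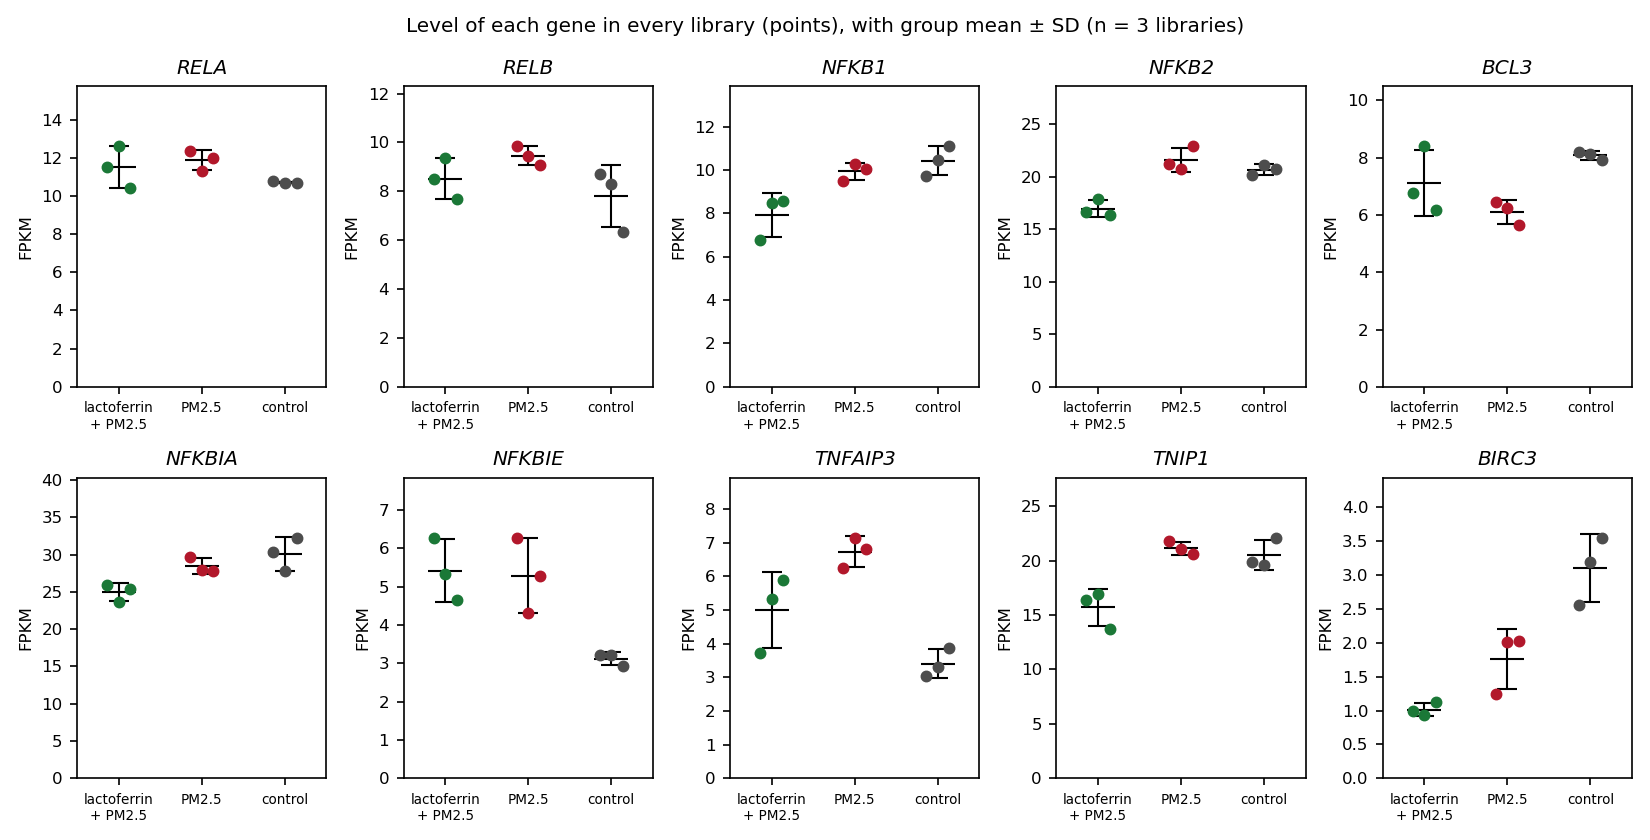
FPKM of each of the 10 genes (linear axes from 0, one panel per gene) in the 3 libraries of each group, with bars for the group mean ± SD. TNFAIP3 and NFKBIE are higher in all PM2.5 libraries than in all control libraries, and BIRC3 and BCL3 are lower. For NFKB1, NFKB2, NFKBIA, TNIP1 and BIRC3 the lactoferrin + PM2.5 libraries lie below all libraries of both other groups.

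Promoter sequence is shown for 5 members whose values the comparisons turn on, so that the NF-κB motifs in them can be read beside the expression values. RefSeq windows (GRCh38.p14, 250 bases before to 50 after an annotated start) were matched for 8 of the 10 genes, with 13 windows in all, and not for NFKBIE and RELB. The NF-κB consensus decamer was searched on both strands, and matches may overlap. It was present in 8 of the 13 windows, which belong to 7 genes, and in 11.3% of all 34943 RefSeq windows of this length. The members were picked as genes of this pathway, so the 2 shares are set side by side only as a description. Given here for 5 genes are the 250 bases before the start, 5′ to 3′ on the gene's strand, with matches to the decamer in capitals.
TNFAIP3, chr6:137867009-137867258, plus strand: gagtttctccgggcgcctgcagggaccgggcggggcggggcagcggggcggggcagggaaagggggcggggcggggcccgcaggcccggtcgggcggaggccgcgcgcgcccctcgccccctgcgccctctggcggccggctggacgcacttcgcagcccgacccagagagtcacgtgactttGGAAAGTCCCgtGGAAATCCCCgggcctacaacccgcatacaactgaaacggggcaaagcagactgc
BIRC3, chr11:102317234-102317483, plus strand: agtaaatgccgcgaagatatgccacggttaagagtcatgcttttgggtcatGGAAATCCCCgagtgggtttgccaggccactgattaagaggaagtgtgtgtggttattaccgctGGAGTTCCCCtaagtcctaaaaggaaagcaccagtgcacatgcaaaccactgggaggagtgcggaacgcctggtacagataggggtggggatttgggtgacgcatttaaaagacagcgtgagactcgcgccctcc
NFKBIA, chr14:35404750-35404999, minus strand: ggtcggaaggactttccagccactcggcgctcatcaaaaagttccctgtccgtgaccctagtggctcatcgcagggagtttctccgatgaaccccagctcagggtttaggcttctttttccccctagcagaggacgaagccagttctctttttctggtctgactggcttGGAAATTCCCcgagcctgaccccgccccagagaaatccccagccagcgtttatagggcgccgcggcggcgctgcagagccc
NFKB2, chr10:102394328-102394577, plus strand: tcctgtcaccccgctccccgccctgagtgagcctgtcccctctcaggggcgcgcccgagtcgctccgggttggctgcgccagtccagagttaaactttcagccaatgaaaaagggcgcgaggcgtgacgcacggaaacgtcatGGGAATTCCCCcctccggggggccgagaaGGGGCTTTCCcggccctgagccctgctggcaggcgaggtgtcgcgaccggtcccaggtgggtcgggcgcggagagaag
TNIP1, chr5:151081035-151081284, minus strand: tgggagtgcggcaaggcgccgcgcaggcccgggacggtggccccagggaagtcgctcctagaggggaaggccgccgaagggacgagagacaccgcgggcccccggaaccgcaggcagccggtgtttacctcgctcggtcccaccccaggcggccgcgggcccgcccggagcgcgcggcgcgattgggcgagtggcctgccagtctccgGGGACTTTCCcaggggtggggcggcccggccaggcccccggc
TNFAIP3 carries a pair of matches, whose first bases lie 67 and 55 bases before the start. BIRC3 carries matches 199 and 135 bases before its start. NFKBIA has 1 match, 81 bases before the start, and TNIP1 has 1, 42 bases before it. NFKB2 has overlapping matches 107 and 106 bases before the start and another 78 bases before it. The NFKB2 window is 1 of 3: that at the first annotated start has no match, and the third has matches 176 and 21 bases before its start. The TNIP1 window is 1 of 2, and the other has no match. All 5 windows shown are ones that hold a match. Among genes not shown, NFKB1 has a match 49 bases before the start in 1 of its 2 windows. BCL3 has a match that begins at base 3 after its start. Neither RELA window held a match. TNFAIP3, which was higher in PM2.5 cells, and BIRC3, which was lower, thus both carry matches. A match describes the letters and is not evidence of binding in these cells.

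The comparison of PM2.5 with control cells asked how the particles changed the circuit at the transcript level. TNFAIP3 and NFKBIE were higher and BIRC3 and BCL3 were lower at an adjusted p under 0.05 (limma on log2(FPKM + 0.5), Benjamini-Hochberg over all genes tested, here and throughout), and the other 6 genes did not pass. These 4 of 10 stand against 35.1% of all genes tested, with 18.5% higher and 16.6% lower, so the share of members called was near the background. The median log2 fold change of the 10 genes was 0.01, beside 0.00 over all genes. The 4 subunit genes were among those that did not pass. The calls for TNFAIP3, NFKBIE and BIRC3 held in each of 21 other settings tried.

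TNFAIP3 encodes A20, a ubiquitin-editing enzyme that shuts down signalling upstream of the IκB kinase. It had 3.73, 5.33 and 5.91 FPKM in lactoferrin + PM2.5 cells, 6.24, 7.15 and 6.80 FPKM in PM2.5 cells, and 3.03, 3.32 and 3.88 FPKM in control cells. Every PM2.5 library was above every control library. The log2 fold change for PM2.5 against control was 0.85 ± 0.15 (SE), 1.80-fold, with an adjusted p of 0.00224 (limma). The gene lies on GRCh38 chromosome 6 (137867188 to 137883312, plus strand, ENSG00000118503), and 1.9% of its exon bases are shared with the antisense gene AL357060.1. The strand setting of the counting is not given in the sources used here.

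NFKBIE encodes IκBε, an IκB inhibitor induced later than IκBα. It had 6.28, 5.33 and 4.65 FPKM in lactoferrin + PM2.5 cells, 6.26, 4.32 and 5.28 FPKM in PM2.5 cells, and 3.21, 3.23 and 2.93 FPKM in control cells. Both exposed groups lay wholly above the control group and overlapped each other. The log2 fold change for PM2.5 against control was 0.62 ± 0.15 (adjusted p = 0.0114, limma). The gene is on GRCh38 chromosome 6 (44258166 to 44265788, minus strand, ENSG00000146232).

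BIRC3 encodes cIAP2, a ubiquitin ligase of the TNF receptor complex that also helps to degrade the NF-κB-inducing kinase. It had 0.989, 0.930 and 1.12 FPKM in lactoferrin + PM2.5 cells, 1.24, 2.02 and 2.02 FPKM in PM2.5 cells, and 2.56, 3.20 and 3.55 FPKM in control cells. The 3 groups did not overlap, with the lactoferrin + PM2.5 libraries lowest and the control libraries highest. PM2.5 against control gave a log2 fold change of -0.72 ± 0.16 (adjusted p = 0.00730, limma). The gene is on GRCh38 chromosome 11 (102317450 to 102339403, plus strand, ENSG00000023445). Its neighbour and paralogue BIRC2, which encodes cIAP1 and is not a member of the set, fell as well, to 8.42 ± 1.46 FPKM in PM2.5 cells against 14.6 ± 1.15 FPKM in control cells (log2 fold change -0.82 ± 0.12, adjusted p = 0.00115, limma).

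BCL3 encodes a nuclear IκB protein that binds p50 and p52 homodimers as a cofactor. It had 6.77, 8.40 and 6.16 FPKM in lactoferrin + PM2.5 cells, 6.46, 6.23 and 5.65 FPKM in PM2.5 cells, and 8.19, 8.14 and 7.91 FPKM in control cells. Every PM2.5 library was below every control library, whereas lactoferrin + PM2.5 replicate 2 was above all of them. The log2 fold change for PM2.5 against control was -0.42 ± 0.12 (adjusted p = 0.0225, limma). This call was lost on leaving out replicate 2 (adjusted p = 0.0543) or 3 (0.0779) of the PM2.5 group, or control replicate 2 (0.0564) or 3 (0.0511), with a log2 fold change between -0.36 and -0.43 in these fits. The gene is on GRCh38 chromosome 19 (44747705 to 44760044, plus strand, ENSG00000069399).

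NFKBIA, which encodes IκBα, the fast-induced inhibitor of RELA dimers, did not pass the test for PM2.5 against control. It had 25.9, 23.6 and 25.4 FPKM in lactoferrin + PM2.5 cells, 29.6, 27.9 and 27.8 FPKM in PM2.5 cells, and 30.4, 27.7 and 32.3 FPKM in control cells. PM2.5 and control libraries overlapped, and the lactoferrin + PM2.5 libraries lay below both. The log2 fold change for PM2.5 against control was -0.13 (95% confidence interval -0.34 to 0.08, adjusted p = 0.325, limma), an interval that leaves out the increase of 0.85 estimated for TNFAIP3. The 2 genes are both induced by NF-κB in many cell types. NFKBIA is on GRCh38 chromosome 14 (35401511 to 35404749, minus strand, ENSG00000100906).

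TNIP1 encodes ABIN1, a ubiquitin-binding partner of A20. It had 16.4, 17.0 and 13.7 FPKM in lactoferrin + PM2.5 cells, 21.8, 21.0 and 20.6 FPKM in PM2.5 cells, and 19.9, 19.5 and 22.1 FPKM in control cells. PM2.5 and control libraries overlapped, and all lactoferrin + PM2.5 libraries were lower than both. For PM2.5 against control the log2 fold change was 0.00 in size with a 95% confidence interval of -0.25 to 0.25, and its sign depended on the scaling (0.04 without scaling, 0.02 with upper-quartile scaling). The gene is on GRCh38 chromosome 5 (151029945 to 151093577, minus strand, ENSG00000145901).

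Among the subunit genes, NFKB2 was the most abundant and RELB varied most between control libraries. NFKB2, which encodes p100 and its product p52, had 16.6, 17.9 and 16.4 FPKM in lactoferrin + PM2.5 cells, 21.2, 20.7 and 22.9 FPKM in PM2.5 cells, and 20.1, 21.1 and 20.7 FPKM in control cells. Its log2 fold change for PM2.5 against control was 0.01 (95% confidence interval -0.15 to 0.18). NFKB1, which encodes p105 and p50, had 6.76, 8.47 and 8.57 FPKM in lactoferrin + PM2.5 cells, 9.49, 10.3 and 10.05 FPKM in PM2.5 cells, and 9.74, 10.5 and 11.1 FPKM in control cells. For both genes the PM2.5 and control libraries overlapped and the lactoferrin + PM2.5 libraries were the lowest. The log2 fold change of NFKB1 for PM2.5 against control was -0.11 ± 0.10 (adjusted p = 0.398, limma).

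RELA, which encodes p65, the subunit with the main transactivation domain, had 11.5, 12.6 and 10.4 FPKM in lactoferrin + PM2.5 cells, 12.3, 11.3 and 12.0 FPKM in PM2.5 cells, and 10.8, 10.7 and 10.7 FPKM in control cells. RELB, the non-canonical partner of p52, had 8.51, 9.35 and 7.69 FPKM in lactoferrin + PM2.5 cells, 9.85, 9.44 and 9.09 FPKM in PM2.5 cells, and 8.73, 8.31 and 6.35 FPKM in control cells. In the deposited FPKM every PM2.5 library was above every control library for both genes, but on the scaled values that were tested the groups overlapped, and neither gene passed. The log2 fold changes were 0.10 ± 0.09 for RELA (adjusted p = 0.450, limma) and 0.23 ± 0.12 for RELB (adjusted p = 0.169, limma). Without control replicate 3, the lowest library for RELB, its log2 fold change was 0.12 (adjusted p = 0.443, limma). In all, PM2.5 and control libraries did not overlap in the deposited FPKM for 4 genes that were higher and 2 that were lower, beside 30.9% and 22.7% of all genes tested. On the scaled values it was 2 higher (TNFAIP3 and NFKBIE) and 2 lower (BIRC3 and BCL3), beside 28.1% and 25.7%.

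The 2 REL genes and the 2 NFKB genes are on GRCh38 chromosome 11 (RELA, 65653596 to 65663094, minus strand, ENSG00000173039), chromosome 19 (RELB, 45001430 to 45038198, plus strand, ENSG00000104856), chromosome 4 (NFKB1, 102501329 to 102617302, plus strand, ENSG00000109320) and chromosome 10 (NFKB2, 102394110 to 102402529, plus strand, ENSG00000077150). Summed over these 4 genes, subunit transcripts came to 44.9 ± 2.93 FPKM in lactoferrin + PM2.5 cells, 52.8 ± 1.17 FPKM in PM2.5 cells and 49.6 ± 0.928 FPKM in control cells, and the lactoferrin + PM2.5 libraries were below all others. The PM2.5 and control sums did not overlap in the deposited FPKM, but after scaling they did, at 50.8 to 53.6 in PM2.5 libraries and 49.8 to 51.1 in control libraries. NFKB1 made up 17.7 ± 2.17% of the sum in lactoferrin + PM2.5 cells, 18.8 ± 0.963% in PM2.5 cells and 21.1 ± 1.54% in control cells. RELA made up 25.6 ± 1.24% in lactoferrin + PM2.5 cells, 22.5 ± 0.780% in PM2.5 cells and 21.6 ± 0.421% in control cells. The share of RELA was thus above that of the other groups in all lactoferrin + PM2.5 libraries (24.2% to 26.5%), whose NFKB2 and NFKB1 levels were low. The ratio of NFKBIA to RELA, inhibitor transcript per subunit transcript, was 2.19 ± 0.287 in lactoferrin + PM2.5 cells, 2.40 ± 0.0773 in PM2.5 cells and 2.81 ± 0.213 in control cells. The lactoferrin + PM2.5 libraries (1.87 to 2.44) and PM2.5 libraries (2.32 to 2.47) overlapped, and both lay below all control libraries (2.60 to 3.02). These sums and ratios are descriptions with no test.

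**Figure D2:**
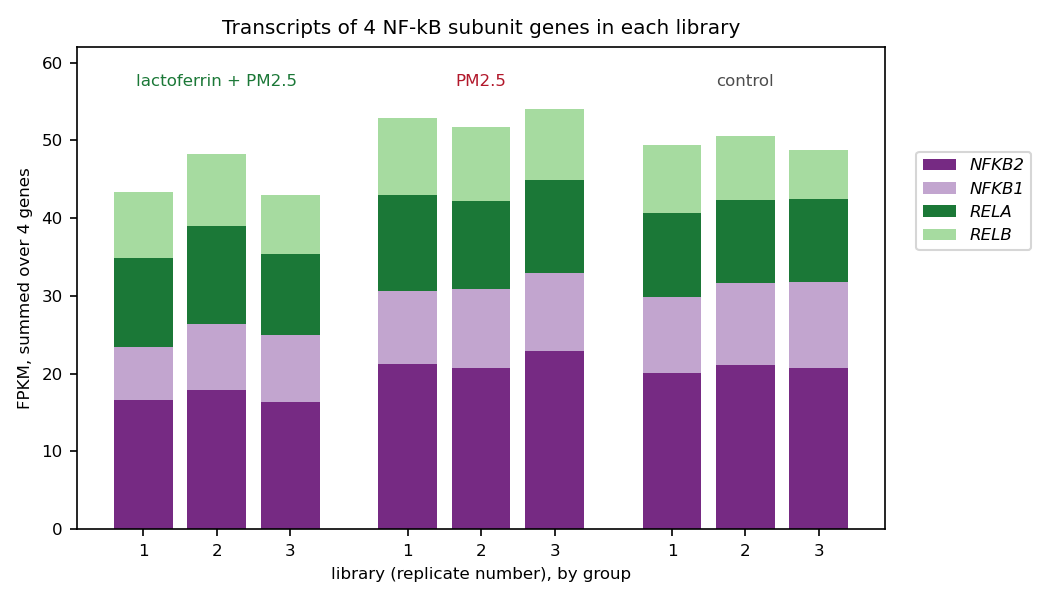
Stacked bars of FPKM for NFKB2, NFKB1, RELA and RELB in each library (replicate number on the horizontal axis, groups named above the bars). The sum is 43.0 to 48.3 FPKM in lactoferrin + PM2.5 libraries, 51.7 to 54.0 in PM2.5 libraries and 48.8 to 50.6 in control libraries, all before scaling.

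Lactoferrin pretreatment was set against PM2.5 alone to see whether it altered the response to the particles. Of the 10 genes 0 passed at an adjusted p under 0.05 with limma, and 0 passed with limma-voom on rebuilt reads, beside 0.0484% of all genes (7 genes) with limma. At an unadjusted p under 0.05, 5 of the 10 were lower in lactoferrin + PM2.5 cells and 0 were higher, beside 6.39% lower and 5.87% higher of all genes. The 5 were NFKB2 (log2 fold change -0.32 ± 0.07, unadjusted p = 0.00179, adjusted p = 0.248), TNIP1 (-0.41 ± 0.11, 0.00503, 0.309), BIRC3 (-0.54 ± 0.16, 0.00733, 0.312), NFKB1 (-0.30 ± 0.10, 0.0130, 0.354) and TNFAIP3 (-0.40 ± 0.15, 0.0226, 0.385), all from limma. Lactoferrin + PM2.5 libraries were all below PM2.5 libraries for these 5 genes and NFKBIA, 6 of 10, beside 9.79% of all genes tested. On the scaled values it was the same 6 genes, beside 10.6%. The log2 fold change was negative for 8 of the 10, beside 47.8% of all genes, and its median was -0.23, beside 0.01 over all genes. As the members were chosen with earlier results of these data known, these counts beside all genes are descriptions.

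In levels, TNFAIP3 averaged 4.99 ± 1.13 FPKM in lactoferrin + PM2.5 cells and 6.73 ± 0.459 FPKM in PM2.5 cells, and its lowest pretreated library was replicate 1, the one that stood apart. Without that library its log2 fold change was -0.25, and that of NFKB1 was -0.22. NFKB2 averaged 16.9 ± 0.802 FPKM in lactoferrin + PM2.5 cells and 21.6 ± 1.16 FPKM in PM2.5 cells. TNIP1 averaged 15.7 ± 1.72 FPKM in lactoferrin + PM2.5 cells and 21.1 ± 0.602 FPKM in PM2.5 cells. For both genes every lactoferrin + PM2.5 library lay below every library of the PM2.5 and control groups. The remaining members lay nearer to 0: NFKBIA at -0.17 ± 0.09, RELB at -0.13 ± 0.12, RELA at -0.03 ± 0.09, NFKBIE at 0.05 ± 0.15 and BCL3 at 0.21 ± 0.12. For NFKBIE the 95% confidence interval was -0.28 to 0.39, and its sign turned without PM2.5 replicate 2 (-0.07) or lactoferrin + PM2.5 replicate 1 (-0.07).

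The count of members called in this comparison depended on how libraries were weighted. When limma estimated a weight for each library gene by gene, 6 members passed: BIRC3 (-0.69), TNFAIP3 (-0.32), TNIP1 (-0.31), NFKB2 (-0.26) and NFKB1 (-0.22) were lower, and BCL3 (0.41) was higher, with adjusted p between 0.0114 and 0.0411. In that fit 1644 genes passed in all, against 7 without weights. Lactoferrin + PM2.5 replicate 2 received the largest weight (3.41) and replicate 1 of the same group the smallest (0.248), so that the pretreated mean rested largely on 1 library. In BCL3 this is the library with 8.40 FPKM, beside 6.77 and 6.16 FPKM in the others of its group.

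**Figure D3:**
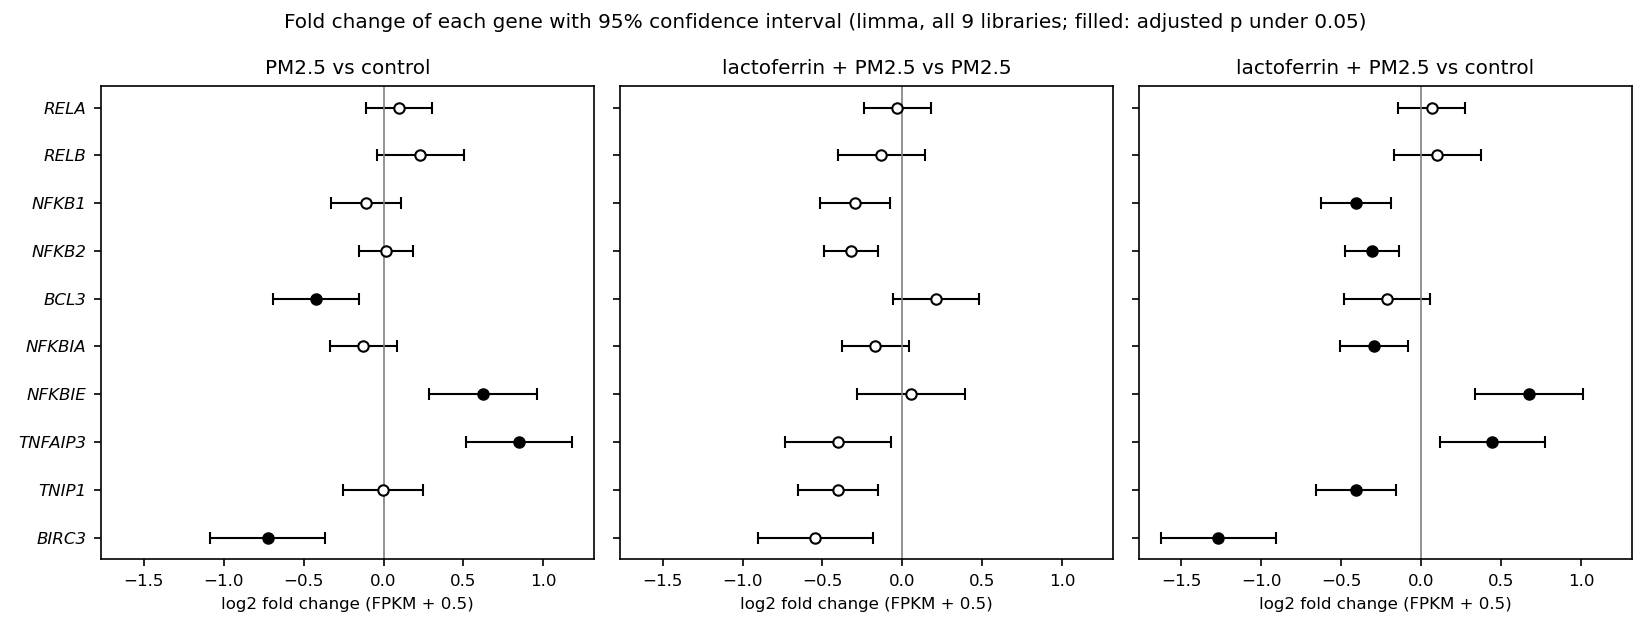
Log2 fold change on the FPKM + 0.5 scale (horizontal axis) with its 95% confidence interval for the 10 genes in 3 comparisons from 1 limma fit; filled points have an adjusted p under 0.05. For PM2.5 against control 4 points are filled, for lactoferrin + PM2.5 against PM2.5 none is, although 5 intervals lie wholly below 0, and for lactoferrin + PM2.5 against control 7 are.

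Lactoferrin + PM2.5 cells were also compared with control cells. This comparison shares its control libraries with that of PM2.5 against control and its pretreated libraries with that of lactoferrin + PM2.5 against PM2.5. NFKBIE and TNFAIP3 were higher, and BIRC3, NFKB1, NFKB2, TNIP1 and NFKBIA were lower, so 7 of 10 genes passed, beside 38.7% of all genes (20.6% higher, 18.1% lower). Lactoferrin + PM2.5 libraries were all below control libraries for 5 members and all above for 1, on deposited and scaled values. On scaled values this was so for 22.9% and 25% of all genes tested. Among the 10, BIRC3 had the largest log2 fold change, at 1.01 ± 0.0996 FPKM in lactoferrin + PM2.5 cells and 3.10 ± 0.502 FPKM in control cells (log2 fold change -1.27 ± 0.16, adjusted p = 0.000322, limma). NFKBIE was 0.67 ± 0.15 higher on the log2 scale (adjusted p = 0.00698, limma), beside 0.62 for PM2.5 against control. NFKB1 was lower by a log2 fold change of -0.41 ± 0.10 (adjusted p = 0.00924, limma) and NFKB2 by -0.31 ± 0.07 (adjusted p = 0.0102, limma). These 4 calls held in each of the 21 other settings.

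The other 3 calls were less secure. TNFAIP3 gave a log2 fold change of 0.45 ± 0.15 (adjusted p = 0.0382, limma), beside 0.85 for PM2.5 against control, and its groups overlapped because lactoferrin + PM2.5 replicate 1 (3.73 FPKM) lay below control replicate 3 (3.88 FPKM). Without these 2 libraries, which stood apart in the principal components and were also the lowest pretreated and the highest control library for this gene, it was 0.70 (adjusted p = 0.00105, limma), in a setting chosen after seeing the data. Its call was lost on leaving out lactoferrin + PM2.5 replicate 2 (adjusted p = 0.120) or 3 (0.142), control replicate 1 (0.145) or 2 (0.103), or any 1 of the PM2.5 libraries (0.0592, 0.0537 and 0.0716 without replicates 1, 2 and 3). NFKBIA gave -0.30 ± 0.09 (adjusted p = 0.0332, limma), at 25.0 ± 1.20 FPKM in lactoferrin + PM2.5 cells and 30.1 ± 2.28 FPKM in control cells. That call went when lactoferrin + PM2.5 replicate 2 (adjusted p = 0.114) or 3 (0.0537), replicate 2 of the PM2.5 group (0.0549), or control replicate 1 (0.0556) or 3 (0.0887) was left out. TNIP1 gave -0.41 ± 0.11 (adjusted p = 0.0172, limma), and its call was lost without control replicate 3 (0.0520). BCL3 (-0.21 ± 0.12), RELA (0.07 ± 0.09) and RELB (0.10 ± 0.12) did not pass. BCL3 passed without lactoferrin + PM2.5 replicate 2 (-0.33, adjusted p = 0.0473, limma).

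The rest of the pathway was read from lists of genes by role. These lists were chosen with earlier results of these data known, so their counts beside all genes are descriptions. Among 11 further subunit, IκB and IκB kinase genes, 10 were tested, and for PM2.5 against control 3 were higher and 2 lower, beside the 18.5% higher and 16.6% lower among all genes. NFKBIB, which encodes IκBβ, was 11.2 ± 0.585 FPKM in PM2.5 cells and 6.99 ± 0.277 FPKM in control cells (log2 fold change 0.60 ± 0.09, adjusted p = 0.00126, limma). IKBKB, the catalytic kinase subunit IKKβ, was higher by 0.56 ± 0.12 (adjusted p = 0.00678, limma). MAP3K14, which encodes the NF-κB-inducing kinase of the non-canonical pathway, was lower by -0.40 ± 0.09 (adjusted p = 0.00962, limma), and IKBKE by -0.55 ± 0.14 (adjusted p = 0.0134, limma). IKBKE was near the floor, at 0.418 ± 0.0823 FPKM in PM2.5 cells and 0.820 ± 0.0758 FPKM in control cells. PM2.5 and control libraries did not overlap for any of these 4 genes, beside 30.9% higher and 22.7% lower of all genes tested. The 4 were named for their small adjusted p, which favours such a pattern. In lactoferrin + PM2.5 cells MAP3K14 averaged 3.45 ± 0.492 FPKM, against 5.58 ± 0.245 FPKM in control cells (log2 fold change -0.66 ± 0.09, adjusted p = 0.000613, limma). NFKBIB averaged 12.7 ± 0.862 FPKM in lactoferrin + PM2.5 cells and 6.99 ± 0.277 FPKM in control cells (0.78 ± 0.09, adjusted p = 0.000233, limma). In both exposed groups, then, transcripts of 2 IκB genes, NFKBIE and NFKBIB, were higher than in control cells while NFKBIA was not. Of other IκB family genes, NFKBIZ and NFKBID passed in neither comparison with control, and BCL3 was lower in PM2.5 cells.

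Of 14 receptor genes upstream, 11 were tested. In PM2.5 cells 5 were higher and 0 were lower than in control cells with limma, beside 18.5% and 16.6% of all genes, and the list's median log2 fold change was 0.37, beside 0.00 over all genes. EGFR went the other way but did not pass, at 19.5 ± 1.34 FPKM in PM2.5 cells and 28.6 ± 2.23 FPKM in control cells. Its log2 fold change was -0.59 ± 0.21 (unadjusted p = 0.0202, adjusted p = 0.0555, limma), and every PM2.5 library was below every control library. The lymphotoxin β receptor gene LTBR, an entry to the non-canonical pathway, was 37.8 ± 1.63 FPKM in PM2.5 cells and 22.4 ± 0.497 FPKM in control cells (log2 fold change 0.70 ± 0.08, adjusted p = 0.000200, limma). CD40, a receptor of the same family, was 20.2 ± 1.601 FPKM in PM2.5 cells and 12.7 ± 1.83 FPKM in control cells (0.61 ± 0.11, adjusted p = 0.00283, limma). TNFRSF1A, the main TNF receptor, was 59.5 ± 1.37 FPKM in PM2.5 cells and 44.3 ± 1.93 FPKM in control cells (0.37 ± 0.09, adjusted p = 0.00882, limma). For each of these 3 receptors, named for their small adjusted p, all PM2.5 libraries were above all control libraries, beside 30.9% of all genes tested. TNFRSF1B, the other TNF receptor, was near the floor at 0.718 ± 0.280 FPKM in PM2.5 cells and 0.0688 ± 0.0313 FPKM in control cells, with a log2 fold change of 1.06 ± 0.22 that the added 0.5 holds down (adjusted p = 0.00586, limma). This gene passed the filter on low values only through exposed libraries, so its place among the higher receptors is not independent of that filter. In lactoferrin + PM2.5 cells 6 of the 11 were higher and 2 lower than in control, beside 20.6% and 18.1% of all genes. EGFR was among the lower ones, at 12.9 ± 4.50 FPKM in lactoferrin + PM2.5 cells and 28.6 ± 2.23 FPKM in control cells (-1.20 ± 0.21, adjusted p = 0.00193, limma).

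Of 24 adaptor and kinase genes, 23 were tested, with 4 higher and 6 lower for PM2.5 against control (all genes, 18.5% and 16.6%) and a median of 0.02. IRAK2, a kinase of interleukin-1 and Toll-like receptor signalling, had the smallest adjusted p, at 11.5 ± 0.605 FPKM in PM2.5 cells and 3.50 ± 0.237 FPKM in control cells (log2 fold change 1.54 ± 0.08, adjusted p = 4.11e-06, limma). RBCK1, which encodes the HOIL-1 subunit of the linear ubiquitin ligase, was higher by 0.77 ± 0.11 (adjusted p = 0.000783, limma), and the scaffold gene CARD10 was lower by -0.78 ± 0.11 (adjusted p = 0.000861, limma). PM2.5 and control libraries did not overlap for these 3 genes, which were named for their small adjusted p, beside 30.9% higher and 22.7% lower of all genes. Of 20 further inhibitor genes, 19 were tested, with 5 higher and 2 lower (all genes, again 18.5% and 16.6%) and a median of 0.09. TAX1BP1, which encodes a cofactor of A20, was 5.36 ± 1.07 FPKM in PM2.5 cells and 13.5 ± 4.36 FPKM in control cells (-1.28 ± 0.28, adjusted p = 0.00750, limma), opposite in direction to TNFAIP3. TOLLIP, an inhibitor of IRAK signalling, was higher by 0.51 ± 0.10 (adjusted p = 0.00497, limma), as was NLRC5 by 0.42 ± 0.12 (adjusted p = 0.0229, limma). NLRC5 was near the floor, at 0.988 ± 0.0159 FPKM in PM2.5 cells and 0.592 ± 0.0468 FPKM in control cells. ITCH, another ubiquitin ligase that works with A20, was lower by -0.38 ± 0.08 (adjusted p = 0.00688, limma).

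**Figure D4:**
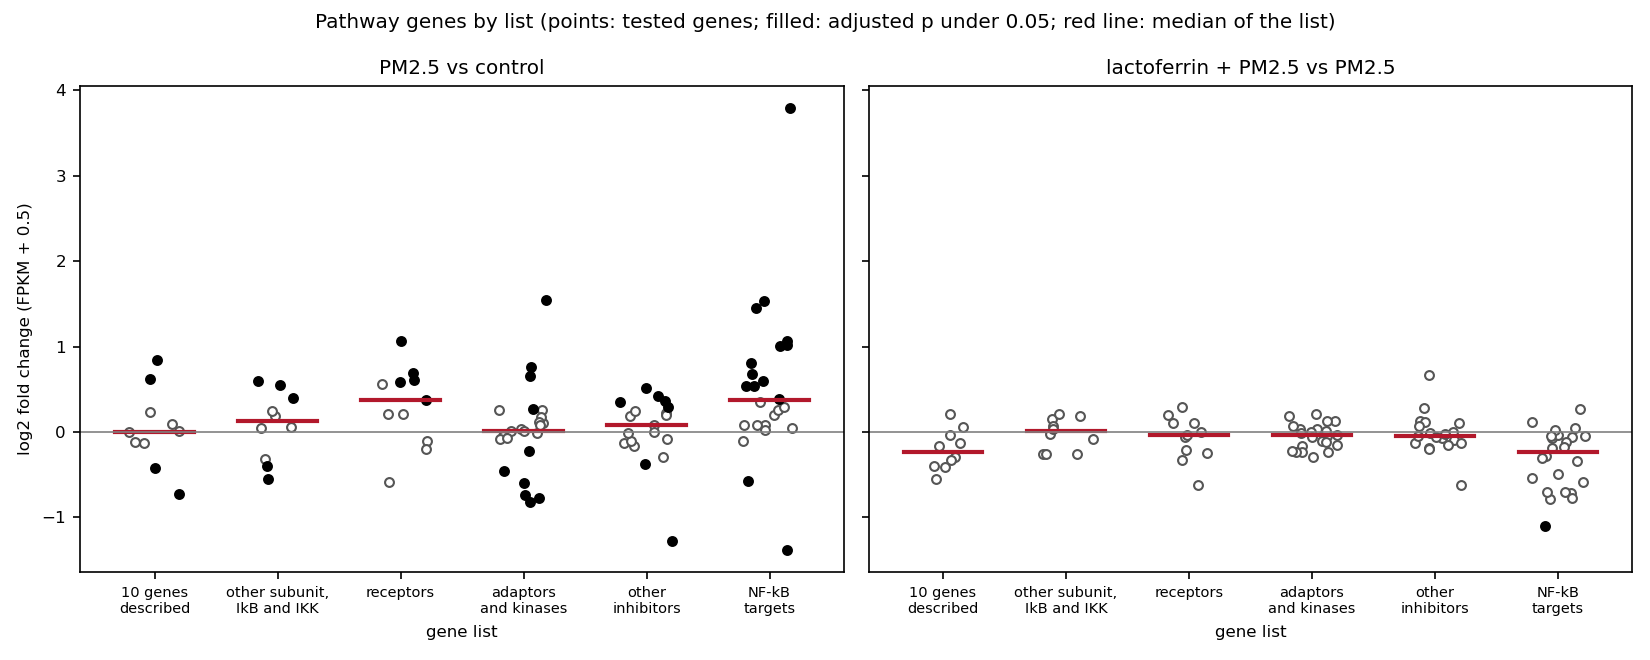
Log2 fold change on the FPKM + 0.5 scale (vertical axis) of each tested gene in the set of 10 and in 5 other lists; filled points have an adjusted p under 0.05, and red lines are list medians. For PM2.5 against control the receptor and target lists have medians of 0.37; for lactoferrin + PM2.5 against PM2.5 the set of 10 and the targets have medians of -0.23 and -0.24, and 1 target passes.

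The target list held 31 genes, of which 30 matched a single identifier and 24 were tested. Of these, 12 were higher and 2 lower for PM2.5 against control, beside 18.5% and 16.6% of all genes, and the median was 0.37, beside 0.00. As the list was chosen with earlier results of these data known, its counts and medians here and below are descriptions. IL1A, among the higher targets, was near the floor at 0.825 ± 0.0557 FPKM in PM2.5 cells and 0.250 ± 0.0788 FPKM in control cells. It passed the filter on low values only through exposed libraries, so its place in that count is not independent of the filter. PLAU, which encodes urokinase, was higher by 1.53 ± 0.08 (adjusted p = 4.23e-06, limma), and the stress gene GADD45B, which NF-κB induces in many cells, was lower by -1.38 ± 0.10 (adjusted p = 1.52e-05, limma). For lactoferrin + PM2.5 against PM2.5 the log2 fold change was negative for 20 of the 24, beside 47.8% of all genes, with a median of -0.24, beside 0.01, while 1 gene passed. That gene was LCN2, the tubular injury marker lipocalin 2, at 1.97 ± 0.191 FPKM in lactoferrin + PM2.5 cells and 4.86 ± 0.395 FPKM in PM2.5 cells (-1.10 ± 0.10, adjusted p = 0.00732, limma). Next by p came IL6 (-0.70 ± 0.10, adjusted p = 0.0607), VCAM1 (-0.78 ± 0.12, 0.0749) and CX3CL1 (-0.49 ± 0.09, 0.131), which did not pass in limma. For PM2.5 against control LCN2 and IL6 were higher, CX3CL1 did not pass, and VCAM1 was the other target that was lower. VCAM1 averaged 1.51 ± 0.334 FPKM in lactoferrin + PM2.5 cells, 2.95 ± 0.178 FPKM in PM2.5 cells and 4.50 ± 0.315 FPKM in control cells. Its log2 fold change for PM2.5 against control was -0.58 ± 0.12 (adjusted p = 0.00486, limma). For LCN2, IL6, VCAM1 and CX3CL1 the lactoferrin + PM2.5 libraries lay below the PM2.5 libraries, beside 9.79% of all genes tested. These 4 were named for their small p, which favours groups that do not overlap. None of the genes in the 4 lists of subunits, receptors, adaptors and inhibitors passed in that comparison with limma. At an unadjusted p under 0.05, in either direction, the counts there were 2 of 10, 3 of 11, 1 of 23 and 2 of 19 genes, and 12 of 24 in the target list, beside 6.39% lower and 5.87% higher among all genes. The smallest adjusted p among them was that of ZC3H12A, which encodes the RNase regnase-1 that degrades inflammatory mRNAs. It averaged 4.53 ± 0.493 FPKM in lactoferrin + PM2.5 cells and 7.31 ± 0.779 FPKM in PM2.5 cells (-0.62 ± 0.10, adjusted p = 0.0749, limma). For lactoferrin + PM2.5 against control, 3 subunit, IκB and IκB kinase genes were higher and 2 lower, 3 adaptor and kinase genes were higher and 5 lower, 2 inhibitor genes were higher and 3 lower, and 7 targets were higher and 3 lower. These counts are of 10, 23, 19 and 24 genes tested, beside 20.6% higher and 18.1% lower among all genes.

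Across the 9 libraries some members ran in parallel and others in opposition. The Pearson correlation of log2(FPKM + 0.5) was 0.924 between NFKB2 and TNIP1, 0.852 between NFKB1 and BIRC3 and 0.817 between NFKB1 and NFKB2. It was -0.873 between NFKBIE and BIRC3 and -0.746 between TNFAIP3 and BCL3. These are descriptions over libraries that fall into 3 groups, so group means set much of each value. Among 9580 genes with a symbol and a mean of at least 2 FPKM, those with patterns most like TNFAIP3 were LRRN4 (r = 0.99), PDCD11 (0.987), XPO5 (0.986), MICAL2 (0.986) and SLC38A1 (0.983). Those most like NFKBIA were UBE2G2 (0.953), USP28 (0.935), INVS (0.927), BBS2 (0.922) and PTPN18 (0.921). Those most like RELB included B4GALT2 (0.969), TMEM203 (0.94), VASP (0.929) and LRRC20 (0.916). The 3 short lists share no gene, and each r is over 9 libraries.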

How the data were processed

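RNA of 9 HK-2 libraries was analysed from 1 deposited table per library, whose unit, FPKM, was inferred from the values. Times GENCODE v29 union exon length, 85.9% to 87.2% of low values were whole multiples of 1 step (tolerance 0.05). The submitters' processing notes name HISAT2 2.1.0, Trimmomatic 0.38, DESeq2 1.22.1, featureCounts 1.6.0, FastQC, CASAVA and MultiQC with GRCh38; roles, strand setting and annotation release are not given in the sources used.

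Printed levels, sums and overlaps between groups are from the deposited FPKM unless called scaled. For tests, FPKM were divided by trimmed mean of M values factors (0.955 to 1.04), and log2(FPKM + 0.5) of genes with at least 0.5 FPKM in at least 3 libraries went into 1 limma fit (version 3.58.1, R 4.3.3) of all 9 libraries with a mean per group, trend and robust options, and Benjamini-Hochberg adjustment. The fit was tested on simulated data in which all libraries had the same spread, so that test does not cover libraries that stand apart, as some did here. Fold changes on this scale understate changes of low genes. The labels do not say that replicates were separate cultures, so p-values reflect only the spread among these libraries, possibly a technical one. Every replicate pair differed beyond sampling noise. From each pathway list the up to 4 genes with the smallest adjusted p per comparison could be named. BIRC2, paralogue of a member, falls under that rule, and IL1A is named outside it for its low values. Some genes that the rules select are not reported here. Members and lists were chosen with earlier results of these data known. Alternatives covered scaling, pseudocount (0.1 and 1), filters, limma-voom, library weights, a replicate block, only the 6 libraries compared, and leaving out each library. Figures used matplotlib 3.10.9 in Python 3.11.15.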

Additional observations from a re-analysis of the deposited data

How the results depend on the processing

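Counts of members called kept their size in most settings: leaving out each library gave 3 to 4 for PM2.5 against control, 0 to 0 for lactoferrin + PM2.5 against PM2.5 and 5 to 7 for lactoferrin + PM2.5 against control. With library weights 6 members passed for lactoferrin + PM2.5 against PM2.5, and over all genes 1644 there and 7704 for PM2.5 against control. For lactoferrin + PM2.5 against PM2.5, 7 genes passed in all; 12 did with the replicate block, 17 with limma-voom, 4 with only the 6 libraries compared and 0 to 6 when each library was left out, with 0 without PM2.5 replicate 1 or 2 or lactoferrin + PM2.5 replicate 2. Whether the replicate numbers pair the libraries was not settled. Of 9 pairs with the same number, 2 had correlated deviations over 0.1 (-0.068 to 0.179), and pairs with different numbers lay between -0.18 and 0.136. With the replicate block 4, 0 and 7 members passed in the 3 comparisons, as without it.

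Sign changes were limited to log2 fold changes near 0 that passed in no setting. For PM2.5 against control TNIP1 turned positive without scaling (0.044), with upper-quartile scaling (0.019), with library weights (0.037) and with control replicate 3 and lactoferrin + PM2.5 replicate 1 both left out (0.067), an alternative chosen after seeing the data. Leaving out each library moved it from -0.049 to 0.070, and NFKB2 from -0.019 to 0.045. For lactoferrin + PM2.5 against PM2.5 the ranges were -0.073 to 0.17 for NFKBIE and -0.099 to 0.034 for RELA, and for lactoferrin + PM2.5 against control -0.0018 to 0.13 for RELA and -0.014 to 0.16 for RELB. With library weights RELA was 0.087 for lactoferrin + PM2.5 against PM2.5. With both libraries left out, RELB was -0.043 for lactoferrin + PM2.5 against control and NFKBIE was -0.073 for lactoferrin + PM2.5 against PM2.5. The weights are gene-by-gene estimates, taken after limma's default estimate did not converge. Without the filter on low values BCL3 lost its call for PM2.5 against control (adjusted p = 0.0645), and NFKBIA (0.0780) and TNFAIP3 (0.103) lost theirs for lactoferrin + PM2.5 against control, with more genes tested. NFKBIA also lost its call with upper-quartile scaling (0.0807), and NFKBIA (0.0663) and TNFAIP3 (0.0930) lost theirs with only the 6 libraries compared. The cause of the other changes was not tested. With 3 libraries per group and BIRC3 at 120 fragments in its lowest library, changes smaller than the intervals given could not be detected.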
